A study of Homo sapiens with 8 samples.

Results

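The genes described here are 38 genes of the response to endoplasmic reticulum (ER) stress and of the amino acid response driven by the transcription factor ATF4, among 60659 genes in the count table. They were chosen by name, as 10 regulators, 4 stress effectors, 6 enzymes of amino acid and one-carbon metabolism, 4 amino acid transporters, 10 ER chaperones and folding factors, 3 components of ER-associated degradation and the lncRNA VLDLR-AS1, whose part in these pathways is not established by these data. The choice was made with earlier results of these data known, so the shares given below are descriptive. All 38 were in the table and all 38 had enough counts to be tested. The libraries were made from ribosome-depleted total RNA of SK-N-SH, a human neuroblastoma cell line, with 2 libraries in each of 4 groups. Every group had all-trans retinoic acid (ATRA) at 10 μM for 24 h, so no group shows these genes without it. In the overexpression experiment, ZMYND8 OE cells carried a FLAG-tagged ZMYND8 under a doxycycline-inducible promoter in a lentiviral vector and were selected with G418. Their controls were parental cells, which received doxycycline (Dox) too but are not described as carrying an empty vector. In the knockdown experiment, ZMYND8 KD cells were compared with KD control cells, and the labels name no Dox for either. The 2 KD control libraries have different titles, CONTROLI_RA and CONTROLII_RA, and the titles do not say whether they are the same control. They were treated as replicates here. The methods describe lentiviral short hairpin RNAs for knockdown, with puromycin selection given for SH-SY5Y cells and neural stem cells but not for SK-N-SH. For SK-N-SH the paper describes loss of ZMYND8 by knockout. The hairpin used for these libraries is not given in the sources used here.

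Proteins that fail to fold in the ER are sensed by the membrane proteins PERK (EIF2AK3), IRE1 (ERN1) and ATF6. IRE1 splices the XBP1 transcript, and spliced XBP1 and cleaved ATF6 switch on chaperones and degradation factors, while PERK phosphorylates the translation factor eIF2α. Phosphorylated eIF2α lowers general translation and raises that of ATF4, which activates genes for amino acid uptake and synthesis, and the kinase GCN2 (EIF2AK4) feeds into the same step when amino acids are scarce. Gene counts show neither XBP1 splicing nor ATF4 translation, so the values below are RNA levels of the sensors, the factors and their targets.

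Library totals were 38316523 to 56256979 counts on genes. ZMYND8, the gene manipulated, rose from 72.7 and 69.9 CPM in parental to 4102 and 4155 CPM in OE, and fell from 59.5 and 61.0 CPM in KD control to 31.3 and 31.5 CPM in KD. CPM is the count of a gene per 1000000 counts of its library, scaled by TMM over all 8 libraries. The line was checked against markers of neuroblastoma. Of 8 adrenergic markers, summed CPM was 307 to 310 in parental, 780 to 823 in OE, 571 to 595 in KD control and 460 to 515 in KD libraries, and TH had 0 to 5 counts in every library. Of 8 mesenchymal markers, summed CPM was 9547 to 10074 in parental, 3189 to 3400 in OE, 4571 to 4740 in KD control and 5815 to 6205 in KD libraries. All 7 adrenergic markers that could be tested rose in OE and all 8 mesenchymal markers fell, while in KD 3 of 6 adrenergic markers fell, and 5 of 8 mesenchymal markers rose and 2 fell. Of 6 proliferation markers, 1 rose and 3 fell in OE and 2 fell in KD, with summed CPM of 1059 to 1093 in parental, 974 to 1058 in OE, 643 to 734 in KD control and 559 to 600 in KD. For comparison, 26.6% of all genes tested rose and 27.8% fell in OE, and 13.1% rose and 10.6% fell in KD. Markers of cell state therefore moved with the comparisons below, and their part in the results was not tested.

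Promoter sequences were searched for the DNA elements by which these pathways are classically read. Among the members, 34 had a promoter window in RefSeq (GRCh38.p14), and the 250 bases before each start were searched on both strands. The ER stress element, bound by ATF6 and XBP1 together with NF-Y, was searched as CCAAT and CCACG set 9 bases apart and was found in 6 of 34 member genes (CALR, CRELD2, HSP90B1, HSPA5, PDIA6 and XBP1), against 0.0916% of all 27305 genes with a window. The C/EBP-ATF response element, to which ATF4 binds, was searched as TGATGNAA and was found in 4 of 34 (ASNS, CEBPG, CHAC1 and HERPUD1), against 3.89% of all genes. Each stretch below reads 5′ to 3′ on the strand of its gene, with the match in capitals, which on the opposite strand appears as the reverse complement.
HSPA5, ER stress element, chr9:125241371-125241429, minus strand: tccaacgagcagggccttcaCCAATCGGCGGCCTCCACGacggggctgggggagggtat
CALR, ER stress element, chr19:12938364-12938422, plus strand: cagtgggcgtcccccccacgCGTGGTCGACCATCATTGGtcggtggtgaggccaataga
CRELD2, ER stress element, chr22:49918534-49918592, plus strand: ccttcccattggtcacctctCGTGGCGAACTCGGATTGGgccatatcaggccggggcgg
XBP1, ER stress element, chr22:28800598-28800626, minus strand: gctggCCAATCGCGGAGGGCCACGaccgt
CEBPG, C/EBP-ATF response element, chr19:33374051-33374098, plus strand: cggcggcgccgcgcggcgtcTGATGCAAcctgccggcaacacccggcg
HERPUD1, C/EBP-ATF response element, chr16:56931946-56931993, plus strand: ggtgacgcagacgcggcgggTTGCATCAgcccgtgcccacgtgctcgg
CHAC1, C/EBP-ATF response element, chr15:40953252-40953279, plus strand: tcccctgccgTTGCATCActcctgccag
The match to the ER stress element began 66 bases before the RefSeq start in HSPA5 and 52 bases before that in XBP1. RefSeq starts can differ from the ends of the gene spans used for counting. The stretches of CHAC1, CEBPG and CRELD2 lie within those spans, and that of CHAC1 lies wholly in exons. A match is a description of letters and was not tested for binding. Only exact matches in these windows were sought, so a gene without one may carry a variant or more distant element.

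Most of the 38 genes had less RNA with ZMYND8 overexpression, and 15 had more RNA with knockdown, of which 10 were among those that fell with overexpression. A gene is said to have risen or fallen where edgeR's quasi-likelihood test gave a Benjamini-Hochberg adjusted p below 0.05 over all genes tested and the mean normalized count was above 20, and to be past the fold where the log2 fold change was also at least 1 in size. In OE, 28 of 38 genes fell (73.7%) and 4 rose (10.5%), against 27.8% and 26.6% of the 20835 genes tested. Their median log2 fold change was -0.59, against 0.03 for all genes tested, and 5 genes fell past the fold (background 6.84%) while 1 rose past it (background 11.8%). In KD, 15 of 38 rose (39.5%) and 7 fell (18.4%), against 13.1% and 10.6% of the 19789 genes tested. Genes tested include those with mean counts of 20 or less, which could not be called, and small changes pass more readily at high counts. These background shares, and those below, are not matched to the 38 genes for level. The median in KD was 0.19, against -0.01 for all genes tested, and 1 gene rose past the fold (background 1.36%) and none fell past it (background 0.596%), in edgeR or DESeq2, since the lowest value was -0.51 for HERPUD1. Summed over the 38 genes, CPM was 6799 and 6823 in parental against 4039 and 3896 in OE. The corresponding sums were 7939 and 7640 in KD control and 8155 and 8131 in KD. In bulk samples, less RNA per cell and fewer cells that make it cannot be told apart. Nothing in the labels says that the 2 libraries of a group came from separate cultures, so p-values measure the spread between these libraries, which may be technical.

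**Figure D1:**
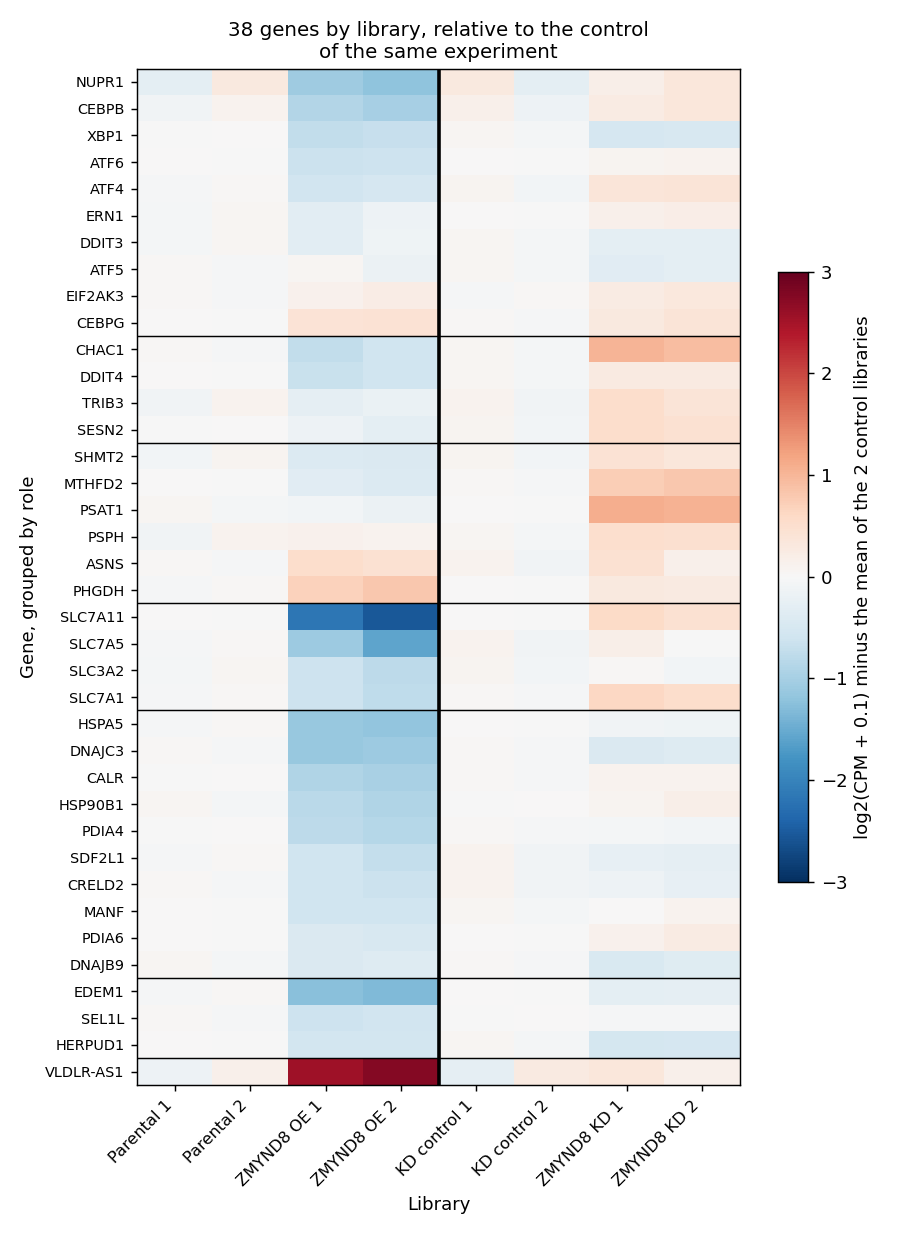
Heat map of log2(CPM + 0.1) of the 38 genes (rows, grouped by role) in the 8 libraries (columns), each minus the mean of the 2 control libraries of the same experiment; red is higher and blue lower. The 2 OE libraries are blue over most rows, whereas the 2 KD libraries are red in the effectors, enzymes and some transporters and blue at XBP1, DNAJB9, DNAJC3 and the degradation genes HERPUD1 and EDEM1.

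The 4 amino acid transporters all fell in OE (27.8% of all genes tested), and SLC7A11 had the largest decrease of the 38 genes. SLC7A11 (ENSG00000151012, chromosome 4, 138164097 to 138242349, minus strand), the cystine importer that feeds glutathione synthesis, was at 46.7 and 45.3 CPM in parental and at 10.1 and 7.84 CPM in OE. That was a 5.06-fold decrease, or -2.34 on the log2 scale (standard error 0.10, adjusted p = 1.08e-08). In KD it went the other way, from 66.9 and 65.7 CPM to 99.1 and 91.0 CPM (log2 fold change 0.52, standard error 0.06, adjusted p = 1.06e-04). Libraries of SLC7A11 did not overlap between groups in either experiment, and both KD groups lay above the parental libraries. SLC7A5, the large neutral amino acid transporter LAT1, fell from 273 and 288 CPM to 132 and 93.8 CPM in OE (log2 fold change -1.30, standard error 0.12, adjusted p = 4.95e-06). It had 547 and 472 CPM in KD control and 574 and 501 CPM in KD, groups that overlap (log2 fold change 0.08, adjusted p = 0.525). The partner chain of both transporters, SLC3A2, followed SLC7A5, with a log2 fold change of -0.70 in OE (adjusted p = 4.84e-06) and -0.02 in KD (adjusted p = 0.835). SLC7A1, the arginine and lysine transporter CAT1, instead moved in opposite directions. It was at 189 and 196 CPM in parental and 125 and 114 CPM in OE, and at 223 and 214 CPM in KD control and 337 and 317 CPM in KD. Its log2 fold changes were -0.68 (standard error 0.06, adjusted p = 2.21e-06) in OE and 0.58 (standard error 0.05, adjusted p = 3.47e-05) in KD.

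All 10 ER chaperones and folding factors fell in OE, against 27.8% of all genes tested. Their log2 fold changes were -0.40 to -1.15 with a median of -0.73. HSPA5 (ENSG00000044574, chromosome 9, 125234853 to 125241343, minus strand) encodes BiP, the main Hsp70 chaperone of the ER, which holds the stress sensors inactive. It was at 780 and 809 CPM in parental and 361 and 349 CPM in OE, less than any parental library (log2 fold change -1.15, standard error 0.05, adjusted p = 1.30e-08). HSPA5 did not pass in KD, at 1401 and 1373 CPM in KD control against 1281 and 1267 CPM in KD (log2 fold change -0.12, standard error 0.05, adjusted p = 0.123). DNAJC3, a BiP cochaperone that inhibits eIF2α kinases, went from 126 and 118 CPM to 55.2 and 57.0 CPM in OE (log2 fold change -1.12, adjusted p = 2.25e-08). It also fell in KD, from 178 and 168 CPM to 128 and 133 CPM (log2 fold change -0.41, adjusted p = 2.53e-04). CALR, the lectin chaperone calreticulin, had the highest level of the 38 genes per length, a mean of 431 CPM per kilobase of exon over the groups. It was at 1303 and 1313 CPM in parental and 696 and 662 CPM in OE (log2 fold change -0.94, adjusted p = 6.17e-08), and at 1333 and 1263 CPM in KD control and 1400 and 1388 CPM in KD (log2 fold change 0.11, adjusted p = 0.191). HSP90B1 (GRP94) and the disulfide isomerases PDIA4 and PDIA6 fell by log2 fold changes of -0.85, -0.81 and -0.44 in OE. The secreted stress proteins CRELD2 and MANF and the folding factor SDF2L1 fell by -0.62, -0.58 and -0.65. In KD the group did not share a direction. DNAJB9 (ERdj4, log2 fold change -0.42, adjusted p = 3.00e-04) fell along with DNAJC3, PDIA6 rose (0.20, adjusted p = 0.0244), and the other 7 did not pass the test, at -0.27 to 0.13. The PDIA6 call was lost without KD control replicate 1 (adjusted p = 0.0861), KD control replicate 2 (0.133) or KD replicate 2 (0.181) and with no filter on low counts (0.0679), and 25.2% of its exon bases lie on genes of the other strand. CRELD2 was -0.20 in KD (adjusted p = 0.102), -0.31 without KD control replicate 2 and -0.25 without KD replicate 1. It passed with gene length and GC content corrected for (-0.20, adjusted p = 0.0493), as HSP90B1 did (0.14, adjusted p = 0.0361). With the replicate number as a block, CRELD2 (-0.20, adjusted p = 0.0197) and SDF2L1 (-0.27, adjusted p = 0.0465) passed. With that block and gene length corrected for, CRELD2 (adjusted p = 0.0112), SDF2L1 (0.0454) and HSP90B1 (0.0335) passed. DNAJB9 did not pass in OE once gene length and GC content were corrected for (-0.09, adjusted p = 0.237).

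All 3 degradation genes fell in OE (27.8% of all genes tested), and 2 of them fell in KD (10.6% of all). EDEM1, which directs misfolded glycoproteins to degradation, was at 400 and 423 CPM in parental and 173 and 165 CPM in OE (log2 fold change -1.28, standard error 0.05, adjusted p = 9.54e-09). Both KD libraries, at 195 and 198 CPM, also lay below the KD control libraries at 240 and 239 CPM (log2 fold change -0.28, adjusted p = 1.73e-03). HERPUD1, a membrane component of the degradation complex, had nearly the same log2 fold change in each experiment, -0.54 in OE (41.1 and 40.0 to 27.7 and 27.7 CPM, adjusted p = 1.21e-05) and -0.51 in KD (114 and 105 to 76.1 and 77.1 CPM, adjusted p = 8.41e-05). SEL1L, the adaptor of the ubiquitin ligase HRD1, fell in OE (log2 fold change -0.60, adjusted p = 1.66e-06) and did not pass in KD (-0.03, adjusted p = 0.721). The 6 genes with an ER stress element in the window all fell in OE, by log2 fold changes from -0.44 for PDIA6 to -1.15 for HSPA5. All but XBP1 belong to the chaperone group, which fell as a whole, and 73.7% of the 38 genes fell. In KD, XBP1 fell, PDIA6 rose and the other 4 did not pass. Among genes with a C/EBP-ATF response element, CHAC1 and HERPUD1 fell in OE, CEBPG rose and ASNS did not pass. In KD, CHAC1 and CEBPG rose, HERPUD1 fell and ASNS did not pass.

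**Figure D2:**
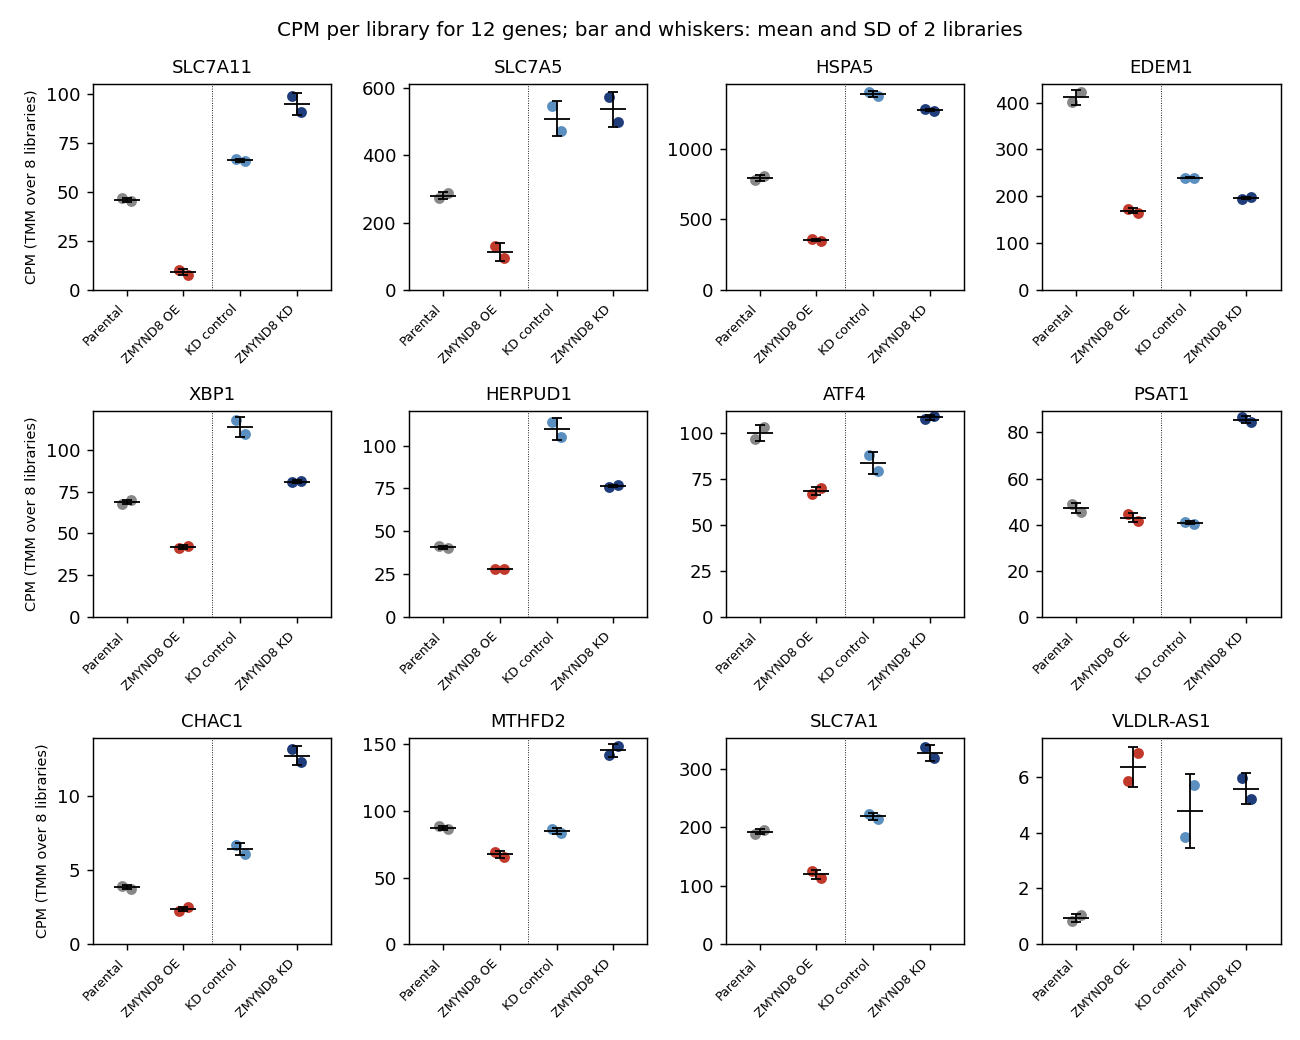
CPM (linear axis from 0) of 12 genes in each library, 2 points per group, with the mean and the SD of the 2 libraries; the dotted line separates the experiments. SLC7A11, HSPA5 and EDEM1 are lower in OE than in parental libraries, XBP1 and HERPUD1 are lower in OE and in KD than in their own controls, and PSAT1, CHAC1, MTHFD2 and SLC7A1 are higher in KD than in KD control.

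Among the 10 regulators, 5 fell and 2 rose in OE, against 27.8% and 26.6% of all genes tested. In KD, 3 fell and 3 rose, against 10.6% and 13.1%. ATF4 (ENSG00000128272, chromosome 22, 39519672 to 39522683, plus strand) was at 97 and 103 CPM in parental and 67.1 and 70.3 CPM in OE (log2 fold change -0.54, standard error 0.05, adjusted p = 9.51e-06). In KD it rose from 88.0 and 79.4 CPM to 108 and 110 CPM (log2 fold change 0.38, standard error 0.06, adjusted p = 7.59e-04), and neither pair of groups overlapped. XBP1 (ENSG00000100219, chromosome 22, 28794555 to 28800597, minus strand) instead fell in both experiments. It was at 67.8 and 69.8 CPM in parental and 41.2 and 42.7 CPM in OE (log2 fold change -0.71, standard error 0.05, adjusted p = 8.17e-07), and at 118 and 109 CPM in KD control and 80.6 and 81.5 CPM in KD (log2 fold change -0.48, standard error 0.05, adjusted p = 1.02e-04). ATF6 fell in OE from 157 and 153 CPM to 99.7 and 101 CPM (log2 fold change -0.62, adjusted p = 1.06e-06), while its KD libraries at 172 and 175 CPM were close to KD control at 162 and 161 CPM (log2 fold change 0.11, adjusted p = 0.136).

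The kinase sensors had log2 fold changes of 0.28 or less in size. ERN1 was at 30.6 and 33.6 CPM in parental and 25.6 and 29.0 CPM in OE (log2 fold change -0.23, adjusted p = 0.0256), and at 35.0 and 33.9 CPM in KD control and 38.2 and 39.3 CPM in KD (0.17, adjusted p = 0.0574). In KD it passed with the replicate number as a block (0.17, adjusted p = 0.0201). The call in OE was lost without parental replicate 2 (adjusted p = 0.177) or OE replicate 1 (0.171), and the adjusted p was 0.0531 with DESeq2 and 0.120 with upper quartile normalization. EIF2AK3 rose in both, from 29.9 and 28.7 to 32.0 and 34.2 CPM in OE (log2 fold change 0.18, adjusted p = 0.0257) and from 39.5 and 41.2 to 47.7 and 50.5 CPM in KD (0.28, adjusted p = 5.50e-03). In OE the EIF2AK3 call did not hold without parental replicate 1 (adjusted p = 0.0735), parental replicate 2 (0.163) or OE replicate 2 (0.138), or with DESeq2 (0.154), and in KD it did not hold without KD control replicate 1 (0.0523).

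CEBPG, a bZIP partner of ATF4, rose in both experiments without overlap of its libraries. It went from 32.4 and 32.0 to 42.7 and 43.8 CPM in OE (log2 fold change 0.43, adjusted p = 4.98e-05) and from 56.6 and 54.3 to 67.8 and 72.6 CPM in KD (0.34, adjusted p = 1.23e-03). CEBPB, a related factor, fell in OE from 24.2 and 27.6 to 14 and 12.9 CPM (log2 fold change -0.94, adjusted p = 5.33e-06). Its level in KD, 23.1 and 24.7 CPM against 21.8 and 17.6 CPM in KD control, gave a log2 fold change of 0.29 that did not pass (adjusted p = 0.0550). The value was 0.44 without KD control replicate 1 and 0.33 without KD replicate 1. CEBPB passed in KD with the replicate number as a block (0.29, adjusted p = 0.0286) and with gene length corrected for (0.30, adjusted p = 0.0435). It also passed with both (0.31, adjusted p = 0.0129) and with gene length and GC content corrected for (0.36, adjusted p = 8.35e-03). ATF5, which ATF4 induces, was at 20.3 and 19.1 CPM in parental, 20.4 and 17.4 CPM in OE (log2 fold change -0.05, adjusted p = 0.676), 24.4 and 22.1 CPM in KD control and 18.3 and 19.0 CPM in KD (log2 fold change -0.31, adjusted p = 0.0129). In OE, ATF5 fell once gene length and GC content were corrected for (-0.28, adjusted p = 0.0175). It lost its KD call without KD control replicate 1 (adjusted p = 0.109) and with no filter on low counts (0.0565). DDIT3, the proapoptotic factor CHOP, was at 8.69 and 9.29 CPM in parental and 7.18 and 8.18 CPM in OE (log2 fold change -0.22, adjusted p = 0.110). In KD, DDIT3 was at 12.1 and 12.1 CPM against 15.6 and 14.2 CPM (log2 fold change -0.30, adjusted p = 0.0315). That decrease did not pass in any fit that left out a library (adjusted p = 0.0568 to 0.178) or with DESeq2 (0.0638) or no filter on low counts (0.0913), and 31.6% of the exon bases of DDIT3 lie on genes of the other strand. NUPR1, a small stress-induced chromatin protein, had 11 and 23 counts in parental, 6 and 4 in OE, 34 and 22 in KD control and 31 and 35 in KD. In OE this gave -1.78 on the log2 scale (standard error 0.53, adjusted p = 0.0138), but its mean normalized count of 10.9 was below the limit set for a call, and in KD it was 0.28 (adjusted p = 0.570).

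The 4 stress effectors fell in OE and rose in KD, as did 7.67% of the 18504 genes tested in both. CHAC1 (ENSG00000128965, chromosome 15, 40952962 to 40956512, plus strand), an enzyme that degrades glutathione, was at 3.95 and 3.75 CPM in parental and 2.27 and 2.5 CPM in OE (log2 fold change -0.69, standard error 0.16, adjusted p = 3.23e-03). Its RNA nearly doubled in KD, from 6.72 and 6.13 to 13.2 and 12.3 CPM, a 1.99-fold increase (standard error 0.10 on the log2 scale, adjusted p = 7.89e-05). DDIT4 and SESN2, inhibitors of the growth kinase complex mTORC1, and TRIB3, a pseudokinase that restrains ATF4, had log2 fold changes of -0.63, -0.21 and -0.24 in OE and 0.27, 0.49 and 0.46 in KD. Calls of SESN2 and TRIB3 in OE were lost without parental replicate 2 (adjusted p = 0.0745 and 0.275). SESN2 also lost its call without OE replicate 2 (0.131) and with upper quartile normalization (-0.14, adjusted p = 0.0919), and TRIB3 lost it without OE replicate 1 (0.0732), with DESeq2 (0.0554) and with upper quartile normalization (-0.16, adjusted p = 0.110). DDIT4 did not pass in KD without KD control replicate 2 (log2 fold change 0.21, adjusted p = 0.0765), and 41.2% of its exon bases lie on genes of the other strand.

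Enzymes of serine, glycine and one-carbon metabolism changed mainly in KD, where 5 of 6 rose, while in OE 2 fell, 1 rose and 3 did not pass. The shares over all genes tested were 13.1% risen in KD, and 27.8% fallen and 26.6% risen in OE. PSAT1 (ENSG00000135069, chromosome 9, 78297125 to 78330093, plus strand), an aminotransferase of the serine pathway, was at 41.3 and 40.4 CPM in KD control and 86.6 and 84.6 CPM in KD, the sole member past the fold there (log2 fold change 1.07, standard error 0.05, adjusted p = 6.49e-07). In OE it was at 44.4 and 41.6 CPM against 48.8 and 45.7 CPM in parental (log2 fold change -0.12, adjusted p = 0.0934). PSAT1 passed in OE with the replicate number as a block (-0.13, adjusted p = 0.0442), and with that and gene length corrected for (-0.13, adjusted p = 0.0333). MTHFD2, a mitochondrial folate enzyme, rose in KD from 86.4 and 83.0 to 142 and 149 CPM (log2 fold change 0.78, adjusted p = 3.64e-06) and fell in OE from 88.4 and 86.1 to 69.3 and 65.6 CPM (-0.36, adjusted p = 1.35e-04). SHMT2, which makes glycine from serine in mitochondria, likewise fell in OE (-0.41) and rose in KD (0.39). PSPH, the last step of serine synthesis, rose in KD (0.50, adjusted p = 1.40e-04) and did not pass in OE (0.13, adjusted p = 0.130), though it did without parental replicate 2 (0.23, adjusted p = 0.0154) and with upper quartile normalization (0.20, adjusted p = 0.0193). PHGDH, the first step of the same pathway, differed from the rest. It rose in OE, from 76.2 and 79.9 to 127 and 136 CPM (log2 fold change 0.76, standard error 0.05, adjusted p = 6.63e-07), and less in KD (0.28, adjusted p = 3.13e-03). ASNS, asparagine synthetase, had low counts, 36 and 41 in parental, 66 and 51 in OE, 112 and 101 in KD control and 143 and 114 in KD, and passed in neither experiment (0.55, adjusted p = 0.0680, and 0.32, adjusted p = 0.255). In OE it passed with upper quartile normalization (0.63, adjusted p = 0.0422) and with gene length and GC content corrected for (0.67, adjusted p = 0.0322). It shares 49.3% of its exon bases with another gene on the same strand, so reads may have been left uncounted there. Of the exonic 31-base sequences, 31.8% of those of PSAT1, 29.4% of PSPH, 27.1% of ATF4, 26.4% of MTHFD2 and 25.8% of HSPA5 occur elsewhere in the genome, so counts of these genes are uncertain where reads with several matches were dropped.

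VLDLR-AS1, an lncRNA on chromosome 9 from 2421597 to 2643359 on the minus strand, was the sole member that rose past the fold in OE. It was at 0.824 and 1.04 CPM in parental and 5.86 and 6.86 CPM in OE (log2 fold change 2.76, standard error 0.18, adjusted p = 3.53e-07). Both KD groups were already near the OE level, at 3.82 and 5.69 CPM in KD control and 5.96 and 5.18 CPM in KD, and overlapped (log2 fold change 0.23, adjusted p = 0.411). Its neighbour VLDLR, a lipoprotein receptor, rose in OE (log2 fold change 1.46, adjusted p = 2.32e-08) and in KD (0.51, adjusted p = 2.27e-04). The strand setting of the counting was not stated, and 10.9% of the exon bases of VLDLR-AS1 lie on genes of the other strand.

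**Figure D3:**
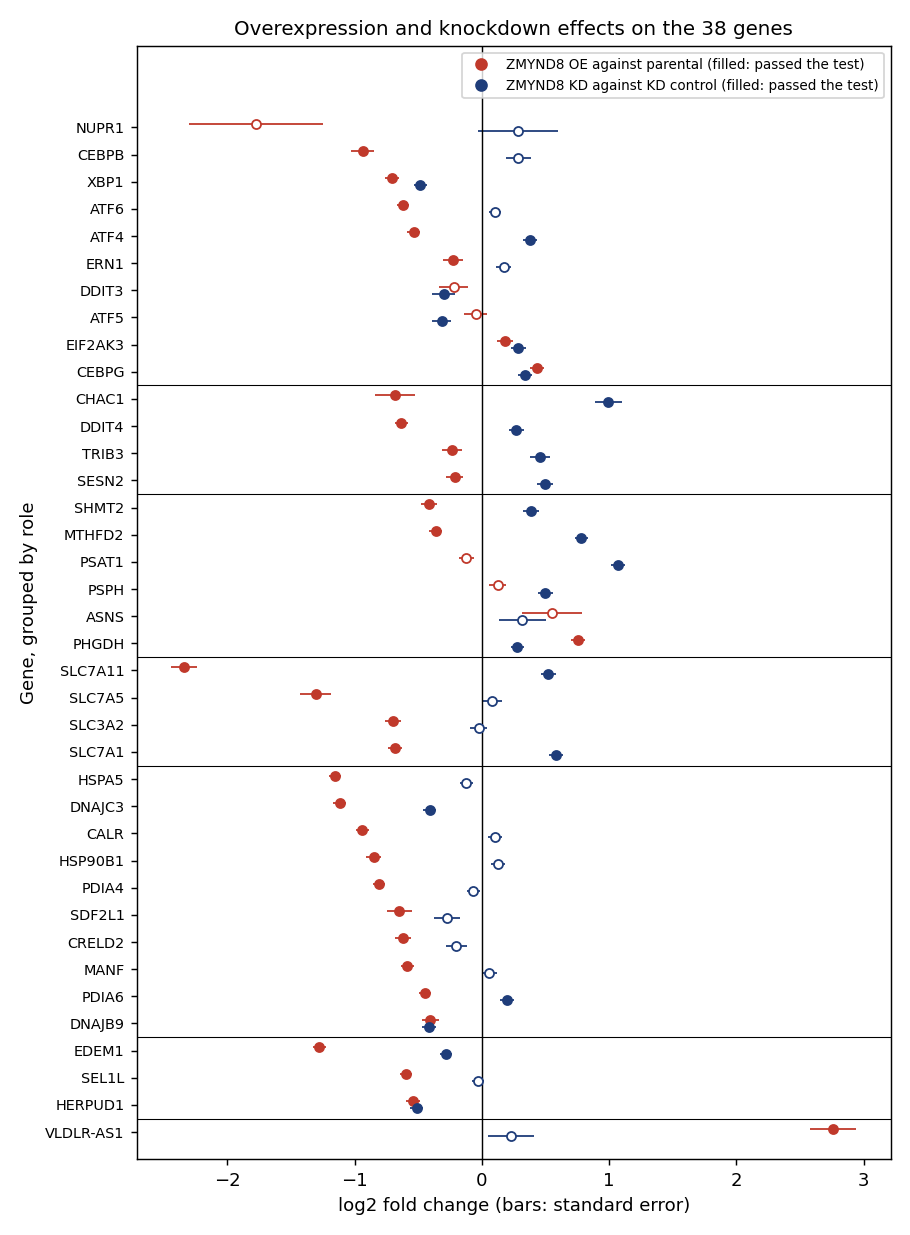
Log2 fold changes of the 38 genes (rows, grouped by role) in OE against parental (red) and KD against KD control (blue), with standard errors; filled points passed the test. Red points lie left of 0 for most genes, and red and blue lie on opposite sides for ATF4, the stress effectors, SLC7A11, SLC7A1, MTHFD2 and SHMT2, but on the same side for XBP1, HERPUD1, DNAJB9, EDEM1, CEBPG and PHGDH.

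Overexpression and knockdown were set side by side gene by gene, since the experiments have separate controls. Of the 38 genes, 10 fell in OE and rose in KD (ATF4, CHAC1, DDIT4, MTHFD2, PDIA6, SESN2, SHMT2, SLC7A1, SLC7A11 and TRIB3), or 26.3%, against 7.67% of the 18504 genes tested in both. Another 5 fell in both (DNAJB9, DNAJC3, EDEM1, HERPUD1 and XBP1), or 13.2% against 4.38% of all, and 3 rose in both (CEBPG, EIF2AK3 and PHGDH), or 7.89% against 2.78%. None rose in OE and fell in KD in edgeR (3.84% of all). A further 13 fell in OE and did not pass in KD, or 34.2% against 18.3%, among them 7 of the ER chaperones. For the difference of the effects, all 8 libraries entered 1 model, and the value tested was the log2 fold change in OE minus that in KD. It was below 0 in 29 genes that passed (76.3%) and above 0 in 2 (5.26%), against 23.2% and 21.4% of the 22619 genes tested, and the median difference was -0.71, against 0.06 for all. Past the fold were 11 genes below 0 (background 7.66%) and 1 above 0 (background 11.1%). Both counts below 0 include NUPR1. It passed the limit on the mean count through the KD control and KD libraries, and its mean in the OE fit was 10.9. SLC7A11 had the largest negative difference, -2.87 (standard error 0.12, adjusted p = 3.95e-11). CHAC1 (-1.69, adjusted p = 1.37e-06), SLC7A5 (-1.39, adjusted p = 5.40e-06), SLC7A1 (-1.27, adjusted p = 5.23e-09) and CEBPB (-1.23, adjusted p = 3.80e-06) followed among genes with ample counts. PSAT1, MTHFD2, CALR, HSPA5 and EDEM1 had differences of -1.20, -1.15, -1.05, -1.04 and -1.0. VLDLR-AS1 (2.52, adjusted p = 3.00e-06) and PHGDH (0.47, adjusted p = 8.37e-05) were the genes above 0.

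Where both experiments had lowered a gene, the test of the difference gave mixed answers. HERPUD1 and DNAJB9 had differences of -0.03 (standard error 0.08, adjusted p = 0.770) and 0.01 (standard error 0.09, adjusted p = 0.977) that did not pass, though that of DNAJB9 did with gene length and GC content corrected for (0.25, adjusted p = 0.0190), whereas DNAJC3 (-0.71) and EDEM1 had fallen more in OE. XBP1 had a difference of -0.23 (standard error 0.07, adjusted p = 0.0196). The XBP1 difference was -0.08 with gene length and GC content corrected for (adjusted p = 0.389) and -0.16 with upper quartile normalization (adjusted p = 0.0845), and its call was also lost without KD control replicate 2 (adjusted p = 0.0817), parental replicate 2 (0.0872) or OE replicate 1 (0.0684). NUPR1, at -2.06 (standard error 0.62, adjusted p = 0.0120), rests on few counts, and its call was lost without parental replicate 2 (-1.59, adjusted p = 0.0910), KD control replicate 1 or either KD library, or with DESeq2 (-2.14, adjusted p = 0.0742), in the 3 KD control and KD cases because its mean count then fell below 20. SDF2L1 (-0.38, adjusted p = 0.0371) did not pass when KD control replicate 2, either parental library, either KD library or OE replicate 2 was left out (adjusted p = 0.0599 to 0.145), nor with upper quartile normalization (0.0794) or the gene length correction (0.0762). The other genes without a difference past the test were ASNS, ATF5, CEBPG, DDIT3 and EIF2AK3, with values of -0.11 to 0.26. Of these, ATF5 passed without OE replicate 2 (0.37, adjusted p = 0.0236) and with upper quartile normalization (0.33, adjusted p = 0.0320), and CEBPG passed with gene length and GC content corrected for (0.25, adjusted p = 7.93e-03).

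The controls of the experiments also differed in these genes. KD control and parental cells came from separate experiments, and of these groups the labels name Dox only for parental cells. They may also differ in construct, and these differences cannot be told apart. Of the 38 genes, 20 were higher in KD control (52.6%) and 9 lower (23.7%), against 29.6% and 32.8% of the 20385 genes tested, with 4 past the fold higher (background 10.8%) and 1 lower (background 10.8%). DNAJB9 was at 30.0 and 27.5 CPM in parental and 107 and 101 CPM in KD control, a log2 difference of 1.87 (standard error 0.06, adjusted p = 7.89e-10). HERPUD1 (1.44), ASNS (1.28) and VLDLR-AS1 (2.35) were also past the fold higher, and DDIT4 (-1.12) was past it lower. HSPA5 (0.81), XBP1 (0.73), DDIT3 (0.74), CHAC1 (0.74) and the 4 transporters (0.19 to 0.96) were higher as well, whereas ATF4 was lower (-0.25, adjusted p = 3.07e-03). The levels from which the genes moved were thus unequal, since XBP1 and HERPUD1 in KD remained above parental levels although they had fallen. ATF4 and SHMT2 no longer passed once gene length and GC content were corrected for (-0.01, adjusted p = 0.906, and -0.0021, adjusted p = 0.972). Calls of ATF5 (adjusted p = 0.0683) and TRIB3 (0.11) were lost with DESeq2, and those of PDIA4 (0.2) and PDIA6 (0.0873) with upper quartile normalization. PDIA4 (0.0953) and SLC7A1 (0.146) lost theirs with gene length corrected for, also with the replicate block added (0.186 and 0.215). PDIA4 lost it with the replicate block alone too (0.0761). Among genes with differences of -0.23 to 0.25, calls were lost without KD control replicate 1 (ATF5 and TRIB3), KD control replicate 2 (PDIA4 and SHMT2), parental replicate 1 (PDIA4, PSAT1, SLC7A1 and TRIB3) or parental replicate 2 (ATF5, PDIA4, PDIA6 and SHMT2), with adjusted p of 0.0564 to 0.298.

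Other genes of the pathways were counted from 6 lists of 88 genes. For comparison, 26.6% of all genes tested rose and 27.8% fell in OE, and 13.1% rose and 10.6% fell in KD. The 12 cytosolic aminoacyl-tRNA synthetases, many of them ATF4 targets, all fell in OE, and 11 rose in KD. EPRS1 had log2 fold changes of -0.84 in OE and 0.57 in KD, AARS1 of -0.80 and 0.21, IARS1 of -0.66 and 0.37 and GARS1 of -0.50 and 0.51. Of 29 other ER folding and quality control genes tested, 26 fell in OE, while 5 rose and 7 fell in KD. The transcription factors CREB3L1 (-1.59) and CREB3L2 (-1.28), the retrieval receptor KDELR3 (-1.40) and EDEM3 (-1.31), a relative of EDEM1, fell most in OE, and in KD CREB3L1 (0.50) and MBTPS1 (0.49), a protease that cleaves ATF6, rose while HYOU1 (-0.47) and PDIA3 (-0.39) fell. Other ATF4 targets were divided in OE, where 4 of 19 rose, a share below the 26.6% of all genes tested, and 9 fell. STC2 (2.80) and ATF3 (2.44) rose and NIBAN1 (-2.55) and GDF15 (-1.95) fell, so the genes of this list did not share a direction there. In KD, 12 of 18 rose and 2 fell, with the largest increases in STC2 (1.38), the folate enzyme ALDH1L2 (1.14), the glycine transporter SLC6A9 (0.84) and ADM2 (0.65). Among 11 genes for eIF2 kinases, eIF2B and eIF2α phosphatases, 6 fell and 1 rose in OE, and 4 rose and 1 fell in KD. GCN2 (EIF2AK4) fell in OE (-0.67) and rose in KD (0.41), as did the phosphatase subunit PPP1R15B (-0.29 and 0.44), while EIF2B2 fell in KD (-0.58). Stress genes of other compartments were counted too. Of 7 cytosolic heat shock genes tested, 5 fell in OE, led by BAG3 (-1.45), and 1 rose in KD, HSP90AB1 (0.28), whereas HSPA1A and HSPA1B, near-identical copies, were not tested. Of 5 mitochondrial chaperones and proteases tested, 3 rose in KD, HSPD1 (0.22), LONP1 (0.16) and HSPA9 (0.15), while in OE none passed in edgeR, at -0.11 to 0.14, and 1 had an unadjusted p below 0.05.

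**Figure D4:**
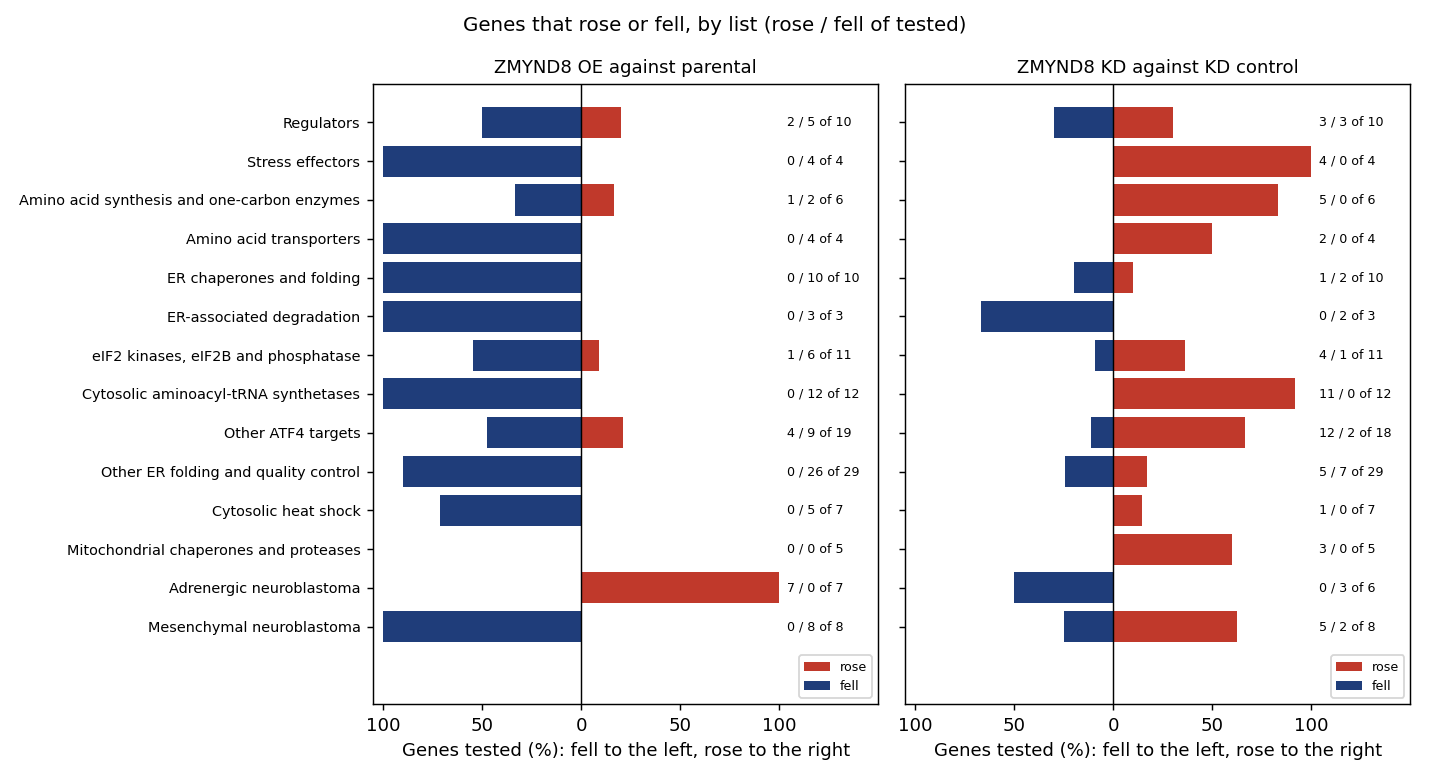
Share of tested genes of each list (rows) that fell (blue, to the left) or rose (red, to the right) in OE against parental (left) and KD against KD control (right), with the counts of rose / fell of tested. Stress effectors and aminoacyl-tRNA synthetases lie on opposite sides in the 2 panels, the ER folding lists lie to the left in OE and on both sides in KD, and the mesenchymal markers fell in OE together with most of the lists.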

How the data were processed

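Counts were analysed from 8 libraries of SK-N-SH cells, mapped to groups by their titles and treatments. The authors deposited raw counts of reads for each gene. The methods name Trim_Galore with a minimum Phred score of 25, alignment by Hisat2 (GRCh38), counting by featureCounts (GENCODE release 28) and DESeq2. The strand setting is not given in the sources used here. Of 60662 lines, 3 lines of 1 split gene were left out. Symbols for 60462 of the 60659 identifiers came from GENCODE release 44, and coordinates are those of the count table (GRCh38).

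Comparisons of 2 groups used the 4 libraries of those groups in edgeR 4.0.16 (limma 3.58.1, R 4.3.3) with filterByExpr, TMM and the quasi-likelihood test, two-sided, with Benjamini-Hochberg adjustment over all genes tested. The difference of effects was fitted on all 8 libraries. The standard error is the size of the log2 fold change divided by the square root of F. The thresholds follow the methods, with the adjusted p in place of p. Replicates differed by more than counting noise (chi-square per degree of freedom 5.52 to 7.97). The biological coefficient of variation was 0.0565 in OE and 0.0613 in KD. The fits were run on simulated counts, with changes planted only in genes with ample counts and only at the fold threshold or above it. Smaller changes, like most described here, were not covered.

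The members, role groups and lists were chosen with earlier results of these data known. The regulators, HSPA5 and all members past the fold in OE, KD or their difference are described by library, and from each other list at most the 4 genes with the largest changes in an experiment are named. Promoter sequences are those of RefSeq (GRCh38.p14). Those of NUPR1, PSPH, SHMT2 and SLC7A11 were not used here. As alternatives, normalization was changed to RLE or upper quartile, the tool to DESeq2 1.42.0, and the fold threshold to a log2 value of 0.5. The low count filter was dropped, all 8 libraries were fitted at once, the replicate number was used as a block, gene length was corrected for, and every library was left out in turn. Correcting for gene length together with GC content was chosen after seeing the data.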

Additional observations from a re-analysis of the deposited data

How the results depend on the processing

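Values were recomputed for 143 results of single members, and 1846 of 1973 recomputed values kept their direction and their side of the test's threshold, 72 lost the call, 28 gained it and 27 changed sign. For KD control against parental only members that had passed were entered, so no call could be gained there. With 2 libraries per group and totals of 38316523 to 56256979 counts, small effects and genes such as NUPR1 and ASNS are limited by few replicates and few counts. The cause of the changes below was not tested.

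Replicate numbers were shared by groups, and the titles do not say whether they pair the samples. The differences between replicate 2 and 1 correlated at 0.0097 between parental and OE and -0.0111 between KD control and KD. No effect shared by replicate number was thus seen, but a correlation cannot tell how the samples were handled. With the replicate block, 4 rose and 29 fell in OE, 17 rose and 9 fell in KD, 20 rose and 8 fell in KD control against parental, and 2 rose and 29 fell in the difference.

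In OE the median log2 fold change of the 38 genes was -0.51 with upper quartile normalization. Leaving out 1 library gave 3 to 4 risen and 25 to 28 fallen members. A fold threshold of 0.5 on the log2 scale left 2 higher and 21 lower in OE, 6 higher and 1 lower in KD, 15 higher and 3 lower in KD control against parental, and 24 lower in the difference. In KD, 2 members were higher past the fold with the gene length correction, alone or with the replicate block, and with the gene length and GC correction, and 1 to 2 when a library was left out, the second being CHAC1. The median in KD was 0.14 to 0.18 when a library was left out. For KD control against parental it was 0.17 to 0.32 when a library was left out, 0.29 with upper quartile normalization and 0.36 with the gene length and GC correction, which put 7 members higher and 0 lower past the fold. For the difference, the median was -0.77 with RLE, -0.64 with upper quartile, -0.77 with DESeq2, -0.79 without a filter, -0.79 with the gene length and GC correction (4 members rose) and -0.76 to -0.64 when a library was left out.

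Signs changed as follows, mostly in values near 0 that had not passed. With upper quartile normalization, ATF5 in OE was 0.030 and the difference of HERPUD1 0.039. With the gene length and GC correction, PSAT1 in OE was 0.081, the difference of ATF5 -0.032, and KD control against parental gave PDIA4 0.011 (adjusted p = 0.830) and CEBPB 0.21 (adjusted p = 0.0306), the 2 results that had passed with the other sign. DNAJB9 in OE was then -0.091 and no longer passed. The difference of DNAJB9 was -0.055 with RLE, -0.057 with DESeq2, -0.076 without a filter, -0.037 with the gene length correction and -0.038 with that and the replicate block, and that of DDIT3 was -0.012 without a filter. Leaving out 1 library at a time gave ranges of -0.17 to 0.066 for ATF5 in OE and, in KD, of -0.11 to 0.057 for SLC3A2, -0.028 to 0.18 for SLC7A5, -0.0016 to 0.11 for MANF, -0.031 to 0.66 for NUPR1 and -0.036 to 0.55 for VLDLR-AS1. For the difference the ranges were -0.049 to 0.063 for DNAJB9, -0.097 to 0.020 for HERPUD1 and -0.023 to 0.16 for DDIT3.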
